A study of Mus musculus with 6 samples.

Results

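The proteasome genes described here are the 48 rows, of 16179 in the deposited expression table, whose symbol joins Psma, Psmb, Psmc, Psmd, Psme, Psmf or Psmg to a number and at most 1 further letter. They were taken by name, with no measured value. They hold the subunits of the proteasome, its activators, an inhibitor and its assembly chaperones, and were kept in classes: 8 genes of the alpha ring, 7 standard genes of the beta ring, 3 immunoproteasome subunits, 9 genes of the 19S base, 8 of the 19S lid, 3 chaperones of the base, 5 activators, 1 inhibitor and 4 chaperones of the core. Of 49 protein-coding genes with such a symbol in the GENCODE M21 annotation, Psmb11, the catalytic subunit of the thymus, was not analysed here.

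The libraries came from hippocampal microglia, the resident macrophages of the brain, of male Progranulin KO mice aged 10 months (strain B6.129S4(FVB)-Grntm1.1Far/Mmja). Both groups carry the knockout. Wild-type microglia were not analysed here, so no value speaks to the loss of progranulin itself. Live CD11b+CD45lo cells were sorted by BODIPY, a dye of neutral lipids, into a droplet-low group (BODIPY-low, 3 libraries) and a droplet-high group (BODIPY-high, 3 libraries), about 10000 cells to a sample. Each sample pooled 2 mice. Whether a BODIPY-low and a BODIPY-high sample came from the same mice is not in the labels, and p-values measure only the spread among the 6 libraries. Values of single libraries are given in the order of replicates 1, 2 and 3, BODIPY-low before BODIPY-high.

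The proteasome is the main protease of the cytosol and nucleus. Its 20S core is a barrel of stacked rings: outer alpha rings, whose tails gate the entrance, and inner beta rings, which hold the catalytic sites. The 19S particle caps the barrel. Its base holds a ring of ATPases that unfold substrates and push them into the core, and its lid holds the deubiquitinase that strips ubiquitin from them. Interferon induces 3 alternative catalytic subunits, which form the immunoproteasome, and the PA28 activator, which opens the core without ATP. Immune cells, microglia among them, use these forms in making peptides for MHC class I. When proteasome activity falls short, the transcription factor Nfe2l1 raises many subunit genes together.

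Sequences are shown for catalytic subunits, PA28 alpha and genes of the 19S base, as examples of the motifs found in promoters, and later for a pair of near-identical activator genes, as a stretch in which they differ. RefSeq promoter windows (GRCm38.p6, 250 bases before to 50 after a start) were matched by symbol for 40 of the 48 genes, with 43 windows. Capitals mark, on either strand, the motif searched. Psmb5 and Psmb6, with Psmc6, Psmd12, Psmd9 and Psme4, hold the core of the antioxidant response element (TGACNNNGC), to which Nfe2l1 and Nfe2l2 are known to bind. Psme1, with Psmb3, Psmd4, Psmd9 and Psmg4, holds the core of the interferon-stimulated response element (in Psme1 on the reverse strand and after the start). Psmb8, with Psmd2 and Psmg1, holds the core of an interferon-gamma activated site (TTCNNNGAA). Psmc1, Psmc2, Psmc6 and Psmd2 are among 14 members that hold a core of the ETS family (CCGGAAG).
Psmb5, chr14:54618024-54618052, minus strand: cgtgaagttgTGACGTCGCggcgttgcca
Psmb6, chr11:70525338-70525366, plus strand: ctaaagagagTGACGGAGCgctttacgac
Psme1, chr14:55578493-55578522, plus strand: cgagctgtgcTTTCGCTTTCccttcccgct
Psmb8, chr17:34198088-34198116, plus strand: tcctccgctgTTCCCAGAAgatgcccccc
Psmc1, chr12:100110164-100110190, plus strand: ggtggatgcaCTTCCGGcggtggcgat
Psmc2, chr5:21785181-21785207, plus strand: ccagtgagcaCTTCCGGgatggggctc
Psmc6, chr14:45329714-45329740, plus strand: ggcgggccagCCGGAAGgggcggagcc
Psmd2, chr16:20651616-20651642, plus strand: ccgcagggcgCTTCCGGtctggaggac

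The ETS core lay in 34.9% of the windows of the proteasome genes and in 8.86% of all 32851 windows. The interferon-stimulated core lay in 11.6% of the members' windows against 3.44% of all. The antioxidant core was about as frequent in both, at 14.0% and 12.4%, as was the interferon-gamma core, at 6.98% and 8.30%. The CCAAT box lay in 30.2% of the members' windows and in 37.4% of all. Windows differ in base composition: the median GC content was 57.3% for the members and 52.7% for all, and its part in these shares was not tested. A match describes letters in a window and does not show a bound site.

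All 48 genes were expressed, with means over the 6 libraries between 75.2 and 6439.8 normalised reads, and all 48 passed the minimum mean of 10 normalised reads that left 12821 genes to be tested. Libraries held between 24982215 and 34899425 reads. Each gene was tested with limma on log2(value + 1), with Benjamini-Hochberg adjustment over all tested genes, and called where the adjusted p was below 0.05. The values are per gene and sample, so fewer cells of a type and less RNA per cell cannot be told apart.

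Per kilobase of transcript, the core and the cap stood at like levels and the assembly chaperones stood lower. Lengths were those of a single annotated transcript per gene, and these levels depend on that choice. In the BODIPY-low group the median of the 48 genes was 1145 normalised reads per kilobase. The class medians on this scale were 1221 for the alpha ring, 1038 for the standard beta ring, 1235 for the immunoproteasome, 1496 for the base and 1188 for the lid. The chaperones of the base had a median of 484 and those of the core 359. The highest single gene was Psma1, an alpha subunit, at 2786, and the lowest was Psma8, the testis form of an alpha subunit, at 69.9. Psme4, the large nuclear activator PA200, was also low, at 92.9.

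Between the groups, proteasome transcripts were slightly higher in BODIPY-high microglia, by small amounts that mostly did not pass the test. Of the 48 genes 3 rose (Psmc3, Psmc5 and Psme1) and 0 fell, while 9.79% of all tested genes were called higher and 3.52% lower, 13.3% in all. The share called among the proteasome genes was thus no larger than the background. edgeR on recovered reads called 2 of the 48 higher (9.48% of all) and DESeq2 5 (11.4% of all), adding Psmc2 and Psmc4. The log2 fold change, BODIPY-high minus BODIPY-low, was above 0 for 44 of the 48 genes, against 6167 of the 12821 tested (48.1%). Its median was 0.20 for the proteasome genes and -0.01 for all tested genes. Without BODIPY-low replicate 2, 38 of the 48 were above 0 and the median was 0.13. The changes were narrow, from -0.08 for Psmc6 to 0.46 for Psme1. At an unadjusted p below 0.05, 14 of the 48 were higher and 0 lower, against 16.1% and 11% of all genes. The BODIPY-high values lay wholly above the BODIPY-low values for 14 of the 48 (18% of all tested genes) and wholly below them for 0 (13.4% of all).

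**Figure D1:**
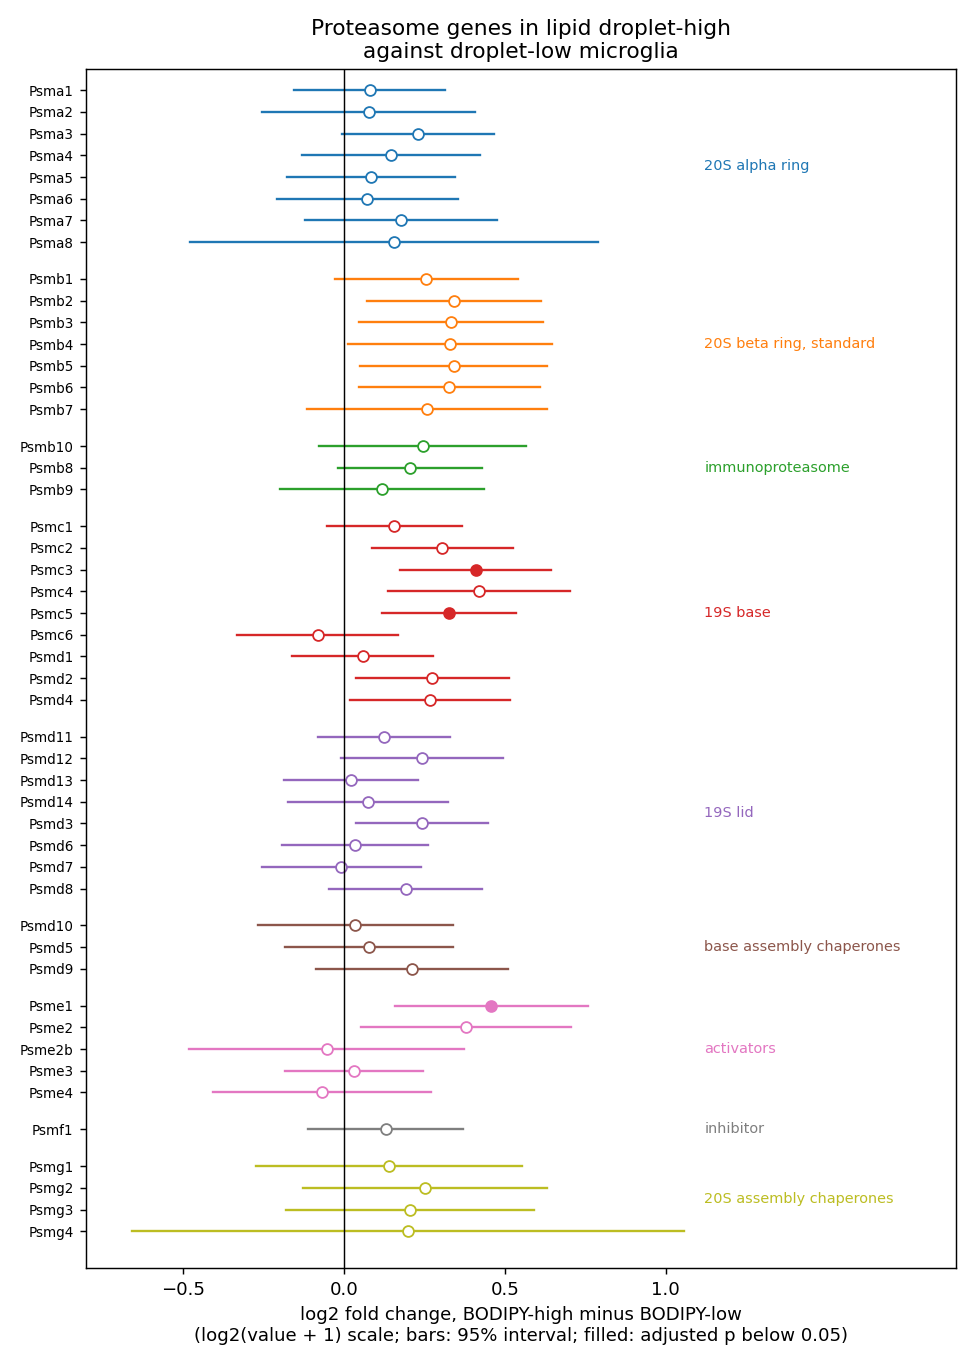
Log2 fold change of each of the 48 proteasome genes, BODIPY-high minus BODIPY-low (3 libraries each), on the log2(value + 1) scale, grouped and coloured by class; circles are limma estimates, bars their 95% intervals, and filled circles have an adjusted p below 0.05. Of the circles 44 lie to the right of 0, the filled ones are Psmc3, Psmc5 and Psme1, and 14 of the bars lie wholly above 0.

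The spread within the BODIPY-low group was wide. Normalised reads summed over the 48 genes were 97055, 82395 and 85843 in the BODIPY-low group against 99695, 103879 and 99568 in the BODIPY-high group. The groups did not overlap in this sum, but BODIPY-low replicate 1 lay much nearer to the BODIPY-high libraries than to its own group. It was the highest of the 3 BODIPY-low libraries for 37 of the 48 genes. BODIPY-low replicate 2 held the lowest of all 6 values for 29 genes, and BODIPY-high replicate 2 the highest for 22. The calls depended on single libraries: leaving out 1 at a time gave between 0 and 8 proteasome genes called higher, with 8 when BODIPY-low replicate 1 was left out (10.1% of all tested genes). The count was 0 without BODIPY-low replicate 2 (6.84% of all), without BODIPY-low replicate 3 (6.99%) or without BODIPY-high replicate 3 (5.37%). It was 1, Psmd2, without BODIPY-high replicate 2 (8.9%) and 3 without BODIPY-high replicate 1 (8.38%).

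**Figure D2:**
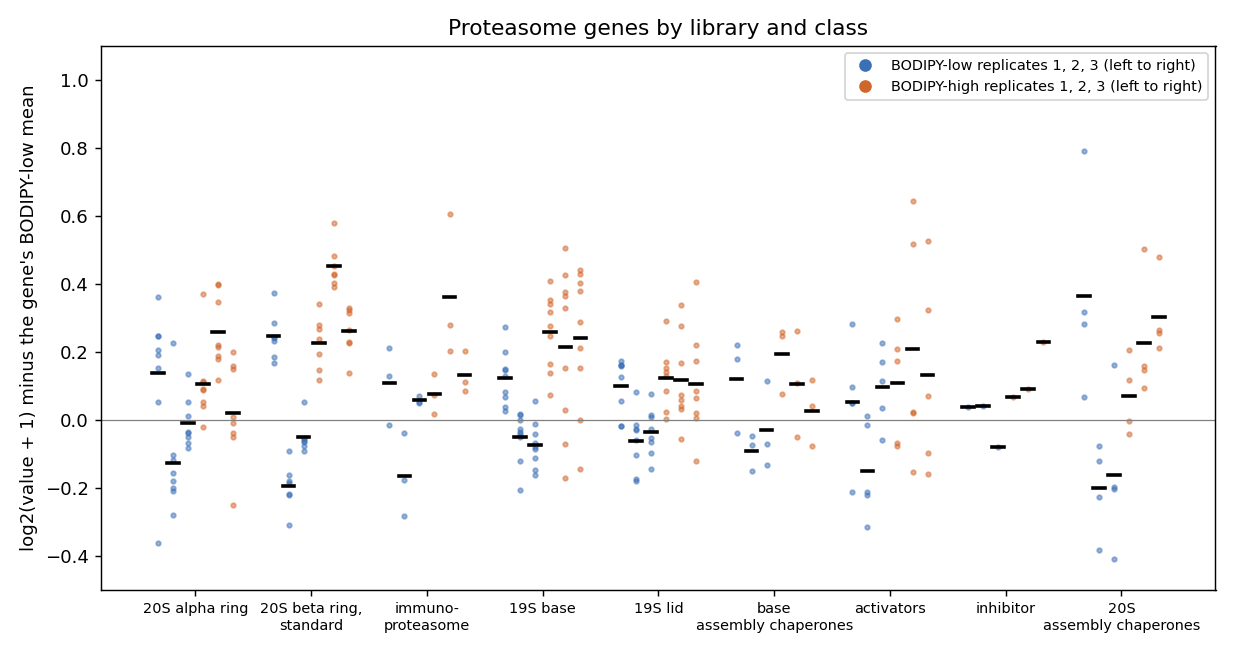
Each point is 1 proteasome gene in 1 library, as log2(value + 1) minus that gene's mean over the 3 BODIPY-low libraries, with columns for BODIPY-low and BODIPY-high replicates 1, 2 and 3 in each class and a black bar at the mean of the class. BODIPY-low replicate 1 lies high among the low libraries in most classes, and the beta ring has the mean farthest above the low libraries, 0.45, in BODIPY-high replicate 2.

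The libraries also differed in their content of other cells. Markers of choroid plexus and ependyma, secretory and ciliated cells that line the ventricles, rose in 8 of 8 genes, with a summed value of 3735 to 18552 in the droplet-low group and 150651 to 263676 in the droplet-high group. Neutrophil markers fell in 8 of 9 genes, from 29766 to 79809 down to 204 to 2307, and monocyte markers fell in 3 of the 4 tested, from 5903 to 12714 down to 102 to 572. No choroid or neutrophil marker was at 0 in any library, while the monocyte markers Vcan and Plac8 reached 0, Vcan in a BODIPY-low and Plac8 in a BODIPY-high library. BODIPY-low replicate 1 had the highest proteasome sum of its group. It also had the group's highest choroid, neutrophil, monocyte, microglial, border macrophage, neuronal and astrocyte sums. Its oligodendrocyte sum was the lowest of the group, and its sum for T and NK cells was not the highest. Microglial markers were abundant throughout, at 1413268 to 1632177 against 1249535 to 1372253, and 2 of 8 fell (Cx3cr1 and Itgam). Of the border macrophage markers 1 of 5 rose (Cd163), with sums of 677 to 926 and 1096 to 1486, and Lyve1 was at 0 in a BODIPY-high library. Neuronal markers rose in 1 of 4 tested genes (Syt1), with sums of 26.9 to 30.9 against 128 to 138; Syt1 was at 0 in a BODIPY-low and Gad1 in a BODIPY-high library. Astrocyte markers rose in 1 of 5 genes (Aldh1l1), with sums of 6988 to 8100.1 against 7759 to 9655. Oligodendrocyte markers rose in 0 of 3 tested genes, with sums of 1334 to 1746 against 1764 to 2911 and Mog at 0 in a BODIPY-low library. Markers of T and NK cells summed to at most 32.5, with Cd3d at 0 in libraries of both groups. Proteasome genes are active in every cell type, and the part of these other cells in the differences below was not tested. Grn itself was listed at 416 to 990.1 against 468 to 1614; how the allele changes its transcript was not analysed here.

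The alpha ring had small estimates. Of its 8 genes 0 were called (13.3% of all tested genes), and 8 of 8 estimates were above 0 (48.1% of all). The median log2 fold change was 0.12, with a range of 0.07 to 0.23. Without BODIPY-low replicate 1 the median was 0.23, and without BODIPY-low replicate 2 it was 0.03, with 6 of 8 estimates above 0. Leaving out BODIPY-high replicate 2 gave 0.06. Psma3, which had the largest estimate, stood at 2433, 2184 and 2438 normalised reads in the BODIPY-low libraries, against 2499, 3098 and 2697 in the BODIPY-high ones. The groups did not overlap, but the lowest BODIPY-high value was close to the highest BODIPY-low one, and the change of 0.23 ± 0.11 (SE) did not pass the test (limma, adjusted p = 0.197). Psma8 stood at 118 ± 24.5 and 132 ± 29.9 normalised reads (SD, n = 3 each).

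The standard beta ring had estimates that hardly differed from gene to gene. All 7 were above 0 (48.1% of all tested genes), between 0.26 and 0.34, with a median of 0.33. Of the 7, 0 were called, against 13.3% of all. An unadjusted p below 0.05 was found for 5 of 7, all higher, against 16.1% of all. The mean of the 7 genes relative to their BODIPY-low level was 0.25, -0.20 and -0.05 on the log2 scale in the BODIPY-low libraries, against 0.23, 0.45 and 0.26 in the BODIPY-high ones. BODIPY-low replicate 1 thus lay within the range of the BODIPY-high libraries. Without it, 3 of the 7 were called higher (10.1% of all tested genes), and the median was 0.45. Without BODIPY-low replicate 2 the median was 0.22, and 0 of the 7 were called (6.84% of all tested genes were called higher).

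Psmb5, the chymotrypsin-like subunit and the target of proteasome inhibitors such as bortezomib, stood at 886, 732 and 732 normalised reads against 989, 1068 and 914. Every BODIPY-high library lay above every BODIPY-low one, and the estimate was 0.34 (95% interval 0.05 to 0.63; limma, adjusted p = 0.12). Psmb6, the caspase-like subunit, stood at 2485, 1754 and 1951 against 2475, 2678 and 2538, for an estimate of 0.33 (limma, adjusted p = 0.123). Here BODIPY-low replicate 1 was above BODIPY-high replicate 1, so the groups overlapped. Psmb7, the trypsin-like subunit, stood at 1173, 730 and 867 against 1068, 1196 and 996, with overlapping groups and an estimate of 0.26 (limma, adjusted p = 0.366). Psmb2, which has no catalytic site and had the largest estimate of the class, stood at 2084, 1548 and 1695 against 2123, 2373 and 2213. Its groups did not overlap, and its estimate was 0.34 (limma, adjusted p = 0.0942).

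The immunoproteasome subunits were expressed throughout, and 0 of 3 were called (13.3% of all tested genes). Psmb8, which replaces Psmb5, stood at 3964, 3207 and 3757 normalised reads against 3983, 4403 and 4178. Every BODIPY-high value was higher, though by a narrow margin, and the estimate was 0.21 (95% interval -0.02 to 0.43; limma, adjusted p = 0.220). Psmb9, which replaces Psmb6, stood at 1051, 746 and 953 against 954, 1043 and 961, with overlapping groups and an estimate of 0.12 (95% interval -0.20 to 0.44; limma, adjusted p = 0.650). Psmb10, which replaces Psmb7, stood at 1602, 1575 and 1679.6 against 1638, 2463 and 1747. BODIPY-high replicate 2 was far above the other libraries, and the estimate of 0.24 (limma, adjusted p = 0.317) was 0.06 without it. Psmb8 and Psmb9 are neighbours in the MHC region of chromosome 17, 9956 bases apart and read away from each other.

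Each immunoproteasome gene was also set against the subunit it replaces, as a log2 ratio per library. The log2 ratio of Psmb9 to Psmb6 was -1.24, -1.23 and -1.03 in the BODIPY-low libraries and between -1.40 and -1.36 in the BODIPY-high ones. The groups did not overlap, the difference was -0.21, and the exact two-sided permutation test gave p = 0.1, the smallest that 3 against 3 libraries allow (0.3 after Benjamini-Hochberg adjustment over the 3 ratios). The ratio of Psmb8 to Psmb5 was 2.22 ± 0.12 against 2.08 ± 0.10 (SD, n = 3 each; exact permutation p = 0.3, adjusted 0.45). The ratio of Psmb10 to Psmb7 was 0.84 ± 0.34 and 0.82 ± 0.21 (SD, n = 3 each; exact permutation p = 1, adjusted 1). With 3 against 3 libraries the exact permutation test cannot pass a threshold of 0.05.

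Per kilobase of transcript, the 3 pairs had different balances. Psmb8 stood at 2238 ± 240.3 and 2572 ± 129 normalised reads per kilobase in the droplet-low and droplet-high groups (SD, n = 3 each), above Psmb5 at 871 ± 99.0 and 1102 ± 85.4. Psmb10 stood at 1235 ± 41.4 and 1487 ± 342, above Psmb7 at 796 ± 196 and 937 ± 87.2. Psmb9 was the reverse, at 678 ± 115 and 729.5 ± 36.5, below Psmb6 at 2586 ± 474 and 3212 ± 129.9. The exons of Psmb9 share 212 bases with Tap1, a peptide transporter gene read from the other strand, and those of Psmb7 share 405 bases with Nek6. Psmb8 shares 498 bases with Gm20496, an antisense gene, and Psmb5 shares 109 bases with Mir686 on its own strand. Reads from these stretches cannot be assigned to 1 gene, since the kits named in the labels do not mark strand, and the values of these 4 subunits are uncertain to that extent. Psmb5 is also 98.9% identical to Gm3375, which has no deposited values, over 796 aligned bases of a transcript of 899. Its level is therefore uncertain over most of its length. Nek6 itself rose, from 6162 to 7644 normalised reads (log2 fold change 0.31; limma, adjusted p = 0.0247), and Tap1 went from 2352 to 1840.3 without passing the test (-0.38; limma, adjusted p = 0.286).

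**Figure D3:**
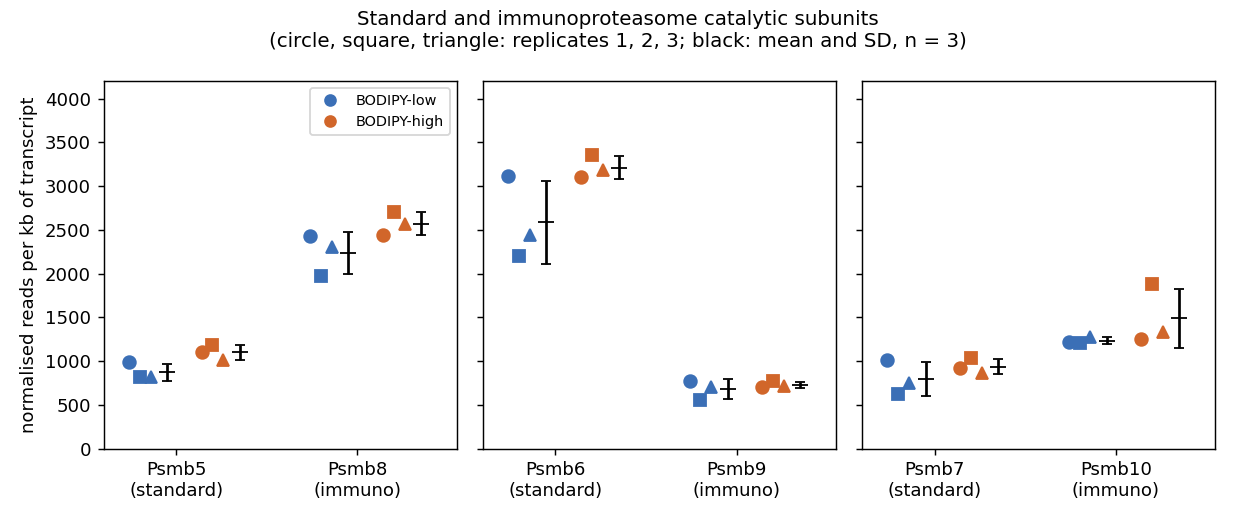
Normalised reads per kilobase of transcript for each standard catalytic subunit and the immunoproteasome subunit that replaces it, in BODIPY-low (blue) and BODIPY-high (orange) libraries; symbols mark the replicates and black bars the mean and SD (n = 3). Psmb8 and Psmb10 lie above their standard partners in both groups, Psmb9 lies below Psmb6, and the groups overlap in 4 of the 6 genes.

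Of the 9 genes of the 19S base 2 rose, both ATPases, against 9.79% of all tested genes. An unadjusted p below 0.05 with a higher BODIPY-high group was found for 6 of the 9, against 16.1% of all. The median log2 fold change of the base was 0.27. For 5 of the 6 ATPase genes, Psmc1 to Psmc5, the groups did not overlap and the BODIPY-high group was the higher one (18% of all tested genes). The 6 ATPase genes summed to 15099, 13027 and 12792 normalised reads against 16441, 16933 and 16344.

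Psmc3 (chr2:91054009-91066369, plus strand), one of the ATPases whose tails dock into the alpha ring and open its gate, stood at 3909, 3291 and 3073 normalised reads against 4249, 4842 and 4503, without overlap. It rose from 3425 ± 434 to 4531 ± 298 (SD, n = 3 each), a log2 fold change of 0.41 ± 0.11 (SE; limma, adjusted p = 0.0282). Without 1 library at a time its adjusted p ran from 0.00929 to 0.134. Its exons share 215 bases with Slc39a13 on the other strand, which stood at 1295 and 1458 normalised reads (log2 fold change 0.17; limma, adjusted p = 0.321).

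Psmc5 (chr11:106256154-106263120, plus strand), another ATPase of the ring, stood at 2128, 2011 and 1903 normalised reads against 2434, 2527 and 2617. The groups were well apart and tight, at 2014 ± 112 and 2526 ± 91.3 (SD, n = 3 each). It rose by a log2 fold change of 0.33 ± 0.09 (SE; limma, adjusted p = 0.0426), with adjusted p between 0.0450 and 0.176 without 1 library at a time.

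The other ATPases parted. Psmc4 stood at 1685, 1209 and 1331 against 1849, 1875 and 1877. Its groups did not overlap, and its estimate of 0.42 narrowly missed the threshold (limma, adjusted p = 0.0536). Psmc2 (estimate 0.31; limma, adjusted p = 0.0677) and Psmc1 (0.16; limma, adjusted p = 0.329) were likewise higher in every BODIPY-high library. Psmc6 was the exception, at 1616, 1417 and 1603 against 1622, 1369 and 1396, with overlapping groups and an estimate of -0.08 (95% interval -0.33 to 0.17; limma, adjusted p = 0.704). Its transcript had the lowest GC content of the 48, 37.0%, and its estimate became 0.20 once a trend with length and GC content was removed (limma, adjusted p = 0.199).

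Of the non-ATPase genes of the base, Psmd2, a scaffold that docks ubiquitin receptors and shuttles, was the most abundant of all 48 proteasome genes by normalised reads. It stood at 5964, 5695 and 5759.7 against 7417, 5918 and 7885. BODIPY-high replicates 1 and 3 lay far above the rest and replicate 2 within the BODIPY-low range, for an estimate of 0.27 (limma, adjusted p = 0.127). Psmd4, an intrinsic ubiquitin receptor, had an estimate of 0.27 (limma, adjusted p = 0.156), and Psmd1, the other scaffold, one of 0.06 (limma, adjusted p = 0.759).

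In the lid 0 of 8 genes were called (13.3% of all tested genes). The median log2 fold change was 0.10, with a range of -0.01 (Psmd7) to 0.24 (Psmd12 and Psmd3). Psmd12, a lid scaffold and the class's largest estimate, stood at 1940.4, 1829.5 and 1829.9 against 2284, 1907 and 2472. As with Psmd2, replicate 2 was the low BODIPY-high library and lay within the BODIPY-low range (estimate 0.24; limma, adjusted p = 0.199). Psmd3, another scaffold of the lid, stood at 2633, 2827 and 2553 against 3003, 3372 and 3109, without overlap (estimate 0.24; limma, adjusted p = 0.118). Psmd14, the deubiquitinase, had an estimate of 0.08 (95% interval -0.17 to 0.32; limma, adjusted p = 0.720).

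Among the activators, 1 of 5 rose (9.79% of all tested genes). The estimates of the cytosolic PA28 genes Psme1 and Psme2 were larger than those of the nuclear activators Psme3 and Psme4. The estimate of Psme2b, a near copy of Psme2, lay between those of Psme4 and Psme3, at -0.05. These differences were not tested. The median of the class was 0.03, and it turned to -0.04 without BODIPY-high replicate 1. Psme1 (chr14:55578123-55581529, plus strand), PA28 alpha, stood at 1846, 1487 and 1868 normalised reads against 1994, 2692 and 2481. The groups did not overlap, and BODIPY-high replicate 1 was nearest to the BODIPY-low group. It rose from 1734 ± 213 to 2389 ± 358 (SD, n = 3 each), a log2 fold change of 0.46 ± 0.14 (SE; limma, adjusted p = 0.0481), the largest estimate of the 48. The call lay at the edge of the threshold: edgeR on recovered reads gave an adjusted p of 0.0530, and leaving out 1 library at a time gave 0.0172 to 0.188.

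Psme2 (chr14:55587441-55591113, minus strand), PA28 beta, forms 1 ring with PA28 alpha, and its gene lies 5911 bases from Psme1 and faces it. It stood at 1657, 1095 and 1396 against 1673, 1950.4 and 1707. The groups were only narrowly apart, since BODIPY-low replicate 1 nearly reached BODIPY-high replicate 1. The estimate was 0.38 (95% interval 0.05 to 0.71; limma, adjusted p = 0.125). Psme3, the nuclear PA28 gamma, stood at 3301, 3215 and 3065 against 3601, 3234 and 2983, with an estimate of 0.03 (95% interval -0.18 to 0.25; limma, adjusted p = 0.878). Psme4, the nuclear PA200, stood at 517, 592 and 699.7 against 571, 608 and 536, with an estimate of -0.07 (limma, adjusted p = 0.822). Both overlapped between groups.

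Psme2b (chr11:48945354-48946190, minus strand) is a near copy of Psme2. Their coding sequences of 717 bases differ at 5 places, an identity of 99.3%, and 3 of these lie in coding bases 484 to 543, printed here from the annotated transcripts with the differing bases in capitals.
Psme2: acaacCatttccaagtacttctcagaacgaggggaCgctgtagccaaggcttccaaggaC
Psme2b: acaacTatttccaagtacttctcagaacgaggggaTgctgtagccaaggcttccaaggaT
Psme2b stood at 268, 222 and 290.4 against 245, 232 and 271, with overlapping groups and an estimate of -0.05 (limma, adjusted p = 0.896; 0.03 without BODIPY-low replicate 3). The transcripts align over 794 bases, of 962 in Psme2 and 837 in Psme2b. A read within the aligned part that covers no difference cannot be assigned to 1 of the genes, so the values of both are uncertain. Psmd11 has a copy in the table as well (A730017L22Rik, 97.9% identical over 1501 bases), which stood at only 63.2 and 40.4 normalised reads. Psma3, Psma4, Psma5, Psmb3, Psmb5, Psmc1 and Psmd2 have near copies without deposited values, so 10 of the 48 genes have a near copy. For Psmd2 the match to Gm5422 runs over 2726 aligned bases of a transcript of 2961. The values of these genes are uncertain in the same way.

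Psmf1, the proteasome inhibitor PI31, stood at 1187, 1190.2 and 1095 against 1213, 1232 and 1355. The groups did not overlap, and the estimate was 0.13 (95% interval -0.11 to 0.37; limma, adjusted p = 0.499). Of the assembly chaperones 0 of 7 were called (13.3% of all tested genes). Those of the base had a median of 0.08, with Psmd9 the largest at 549, 535 and 609.7 against 674, 675 and 611 (estimate 0.21; limma, adjusted p = 0.356). Those of the core had a median of 0.20, with Psmg2 the largest at 558, 455 and 596 against 531, 755 and 636 (estimate 0.25; limma, adjusted p = 0.390). Psmd9 did not overlap between groups and Psmg2 did. The exons of Psmd9 share 1849 bases with Gm26745, a lincRNA gene on the other strand, so its values are uncertain to that extent. The 95% interval was widest for Psmg4, the member with the lowest mean, at -0.66 to 1.06.

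Across the 48 genes the log2 fold change went with the base composition of the transcript. Pearson's r with GC content was 0.55 and Spearman's rho 0.51 over the 48 genes, and with log2 transcript length r was -0.38 and rho -0.36. Over 12346 tested genes with an annotated transcript the same values were 0.08 and 0.15 for GC content, and -0.0049 and -0.18 for length. The genes share their libraries and are not independent, so these are descriptions. With level, as the log2 mean value, r was 0.15 and rho 0.08. After a trend with length and GC content was removed over all genes, the median of the 48 was 0.18. The alpha ring then had a median of 0.18 and the beta ring of 0.29, closer together than the 0.12 and 0.33 without the correction. The median of the immunoproteasome went from 0.21 to 0.11. Differences between these classes were not tested. The corrected values gave 7 called proteasome genes in place of 3 (10.8% of all tested genes), adding Psmc2, Psmc4, Psmb2 and Psmb3.

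**Figure D4:**
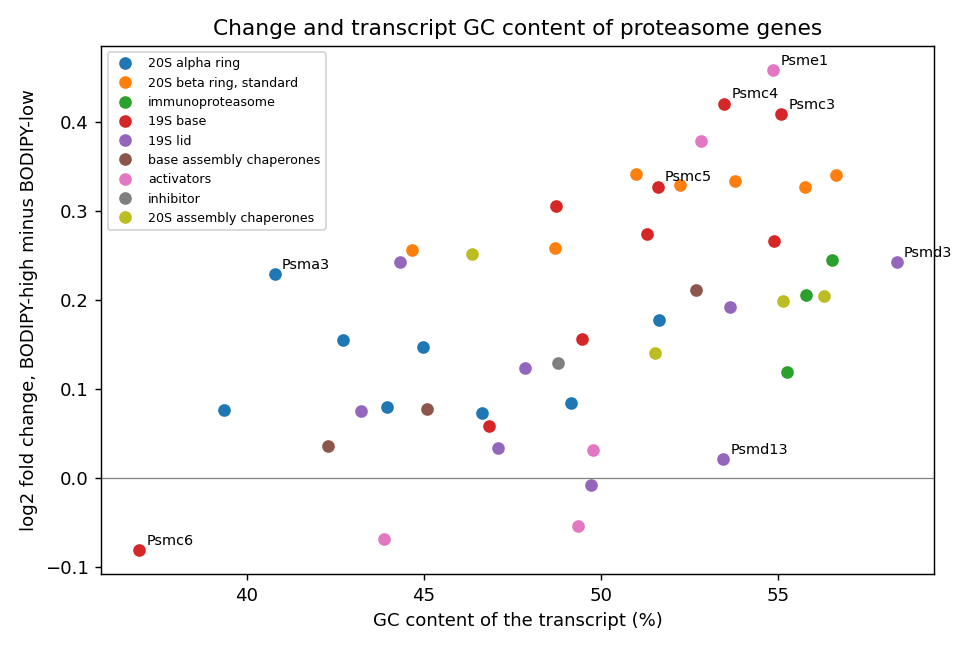
Log2 fold change of each of the 48 proteasome genes (BODIPY-high minus BODIPY-low, log2(value + 1) scale) against the GC content of its transcript in percent, coloured by class. Genes of higher GC content lie higher (Pearson's r 0.55); Psmc6 lies at the low end of both axes and Psme1 at the top.

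Among members with a window, the median log2 fold change was 0.27 for the 5 with the interferon-stimulated core and 0.14 for the 35 without it. The 5 were Psmb3, Psmd4, Psmd9, Psme1 and Psmg4. It was 0.23 with and 0.15 without the antioxidant core (6 and 34 members), and 0.13 with and 0.20 without the ETS core (14 and 26). For the interferon-gamma core the medians were 0.21 and 0.16 (3 and 37 members), and for the CCAAT box 0.12 and 0.20 (13 and 27). These are descriptions over few genes, and Psmc3, a called gene, had no window.

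Genes that work with the proteasome were considered next. Of 30 tested genes for ubiquitin, shuttle factors, associated deubiquitinases and regulators, 1 rose and 0 fell (9.79% and 3.52% of all tested genes), and the median log2 fold change was 0.08. The one that rose was Ubb, a polyubiquitin gene, at 2614 ± 499.6 and 3522 ± 215 normalised reads (SD, n = 3 each; log2 fold change 0.44; limma, adjusted p = 0.0423). Vcp, the segregase that extracts ubiquitinated proteins, had an estimate of 0.27 (limma, adjusted p = 0.072). Nfe2l1, the regulator of subunit genes, had an estimate in the other direction, with means of 3296 and 2606 normalised reads (-0.34; limma, adjusted p = 0.052). Nfe2l2, the regulator of the oxidative stress response, had an estimate of 0.16 (limma, adjusted p = 0.331), and Pomp, which matures the core, one of 0.28 (limma, adjusted p = 0.265).

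The interferon-inducible proteasome genes were set beside 18 tested genes of the interferon response and MHC class I presentation. Of these 0 rose and 1 fell (9.79% and 3.52% of all tested genes), so the count called lower was near the background. Estimates were above 0 for 3 of the 18 (48.1% of all tested genes), and the median log2 fold change was -0.17, against -0.01 for all tested genes. Erap1, which trims peptides in the endoplasmic reticulum, fell from 3622 to 2908 normalised reads (-0.32; limma, adjusted p = 0.049). Tap2, a chain of the peptide transporter, had an estimate of -0.28 (limma, adjusted p = 0.054). Irf1, a transcription factor of the interferon response, had an estimate of -0.18, and B2m, the light chain of MHC class I, one of 0.14. Psmb8, Psmb9, Psmb10, Psme1 and Psme2, which interferon also induces, all had estimates above 0, as had 44 of all 48 proteasome genes.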

How the data were processed

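Per the labels' protocols, RNA of sorted cells was amplified with SmartSeq v4 and made into Nextera XT libraries; per the submitters' processing notes, FastQC 0.11.4, STAR 2.5.3a and DESeq2 were used, with builds mm9 and mm10 listed. The annotation is not given in the sources used here. The deposited values are a signal: the authors divided read counts by 1 size factor per library. Whole reads were recovered for 100% of values (tolerance 0.01 read). Of the symbols, 15532 (96.0%) matched GENCODE M21, which gave coordinates, lengths and GC content on GRCm38. Length and GC content were those of a single transcript per gene. Protein-coding transcripts were taken first, then those ranked as principal by APPRIS, then the longest.

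In R 4.3.3, limma 3.58.1 with a variance trend (two-sided, no block) was applied to log2(value + 1) of the 12821 genes whose mean reached 10. Genes with a Benjamini-Hochberg adjusted p under 0.05 were called. Fold changes on this scale understate those of low genes. Alternatives were pseudocounts of 0.5 and 5, no minimum and a mean of at least 50, TMM, total reads, robust variance, edgeR 4.0.16 (quasi-likelihood; 1215 genes higher, 427 lower) and DESeq2 1.42.0 on recovered reads, a replicate block, a length and GC trend, and leaving out each library. Ratios were tested by exact permutation (scipy 1.17.1), copies sought with BLAST 2.17.0+ (at least 95% over 200 bases), and the fits tested on simulated data. Values for every library were given for the immunoproteasome subunits and those they replace, Psme1 to Psme4, Psmf1, called members and the largest change of each class; Psmb2, Psmc4, Psmd12, Psmd9, Psma3 and Psmg2 came in by the last. Psmc6, Psmd2, Psmd3 and Psme2b were added after their values were seen. The members and lists were chosen with earlier results of these data known.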

Additional observations from a re-analysis of the deposited data

How the results depend on the processing

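Over 18 alternatives, 305 of 342 values of the 19 genes named by rule kept their direction and their side of the threshold, 16 passed it newly, 18 no longer passed it and 3 changed sign when 1 library was left out (log2 fold changes from -0.022 to 0.22 for Psmb9, -0.17 to 0.045 for Psme4 and -0.040 to 0.096 for Psme3). Outside these genes, Psme2b ran from -0.16 to 0.03 and Psmd7 from -0.09 to 0.07 without 1 library. Leaving out 1 library also took Psma2, Psma6, Psma8, Psmd1, Psmd5, Psmd6, Psmd10, Psmd13, Psmd14 and Psmg4 below 0. All of these had estimates above 0 in the main test, and the lowest value they reached was -0.06, in Psma2. Psmc6 was 0.20 with the length and GC trend removed. The difference in the log2 ratio of Psmb10 to Psmb7, -0.01, ran from -0.21 to 0.12, and was 0.12, 0.04 and 0.09 without BODIPY-low replicate 2, BODIPY-low replicate 3 and BODIPY-high replicate 1. The median of the 48 genes lay between 0.13 and 0.26, with 38 to 45 above 0. Class medians ran from 0.22 to 0.45 in the beta ring, 0.08 to 0.24 for the immunoproteasome, 0.25 to 0.34 in the base, 0.07 to 0.17 in the lid and 0.07 to 0.32 for the core's chaperones. Called proteasome genes numbered 1 with a mean of at least 50 (base 1), 5 with DESeq2 (base 4), and 7 with the length and GC trend (base 4, beta ring 2). Called activators numbered 0 with a pseudocount of 0.5, a mean of at least 50, total reads or edgeR. Partner genes called higher numbered 0 with edgeR and 3 with DESeq2, and called lower 1 (none in the main test) with a pseudocount of 5, TMM, robust variance, DESeq2 or the trend. Without 1 library at a time, genes called higher numbered 689 to 1295 and lower 151 to 523 over all, 0 to 8 among the proteasome genes, 0 to 3 in the beta ring, 0 to 4 in the base, 0 to 1 among activators, and 0 to 2 higher and 0 to 1 lower among partners. The cause of these changes was not tested.

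Equal replicate numbers do not show that libraries are paired. Deviations of same-numbered libraries correlated weakly, at 0.11, 0.14 and 0.07 over 12821 genes. Each library correlated best with its own number, but 3 libraries per group are too few to tell pairing from coincidence. With the replicate block, 5 proteasome genes were called higher (base 4), with partners 3 higher and 1 lower, and 1451 genes higher and 760 lower over all. With the block and the length and GC trend together, 12 were called (alpha ring 1, beta ring 3, base 5, lid 1, activators 2), with partners 5 higher and 1 lower and 1685 genes higher and 1113 lower over all; 60.2% of all calls were then higher, against 73.6% in the main test.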
